A study of Mus musculus with 5 samples.

Results

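The genes described here are 10 markers of liver macrophages in 2 sets of 5, read in Hdac3-null liver tumours and in control livers. The resident set holds Cd163, Vsig4, Clec4f, Timd4 and Marco, which mark Kupffer cells. The set of recruited, lipid-associated macrophages holds Trem2, Cd9, Gpnmb, Spp1 and Lgals3. Members were found by an exact match of the gene symbol in the annotation of the array's probe sets, and 9 of the 10 were found, each with 1 probe set, among 19938 genes in all. No probe set carried the symbol Spp1 in the annotation used here, so osteopontin is not analysed here.

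Kupffer cells are the macrophages that live in the liver sinusoids. They are seeded before birth, renew themselves locally, and take up particles, bacteria, haemoglobin and dying cells from the blood through receptors such as those of the resident set. When they are lost, or when the liver is injured or steatotic, monocytes from the blood enter and become macrophages, and those around lipid-laden or damaged tissue take on a state known for Trem2, Cd9, Gpnmb, Spp1 and galectin-3. Cd9, Lgals3 and Spp1 are not restricted to macrophages, since epithelial and bile duct cells can express them too.

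Transcript levels came from 5 Affymetrix gene arrays of male mice about 10 months old, 2 of normal liver from control animals (Hdac3FL/+; AlbCre+) and 3 of liver tumours from null animals (Hdac3FL/-; AlbCre+). All of them carried AlbCre, a Cre recombinase under the albumin promoter that acts in hepatocytes, so that control hepatocytes keep 1 intact Hdac3 allele and null hepatocytes keep 0. Cells without Cre activity, macrophages among them, carry the null allele in the null mice and no null allele in the controls. Every null sample was tumour and every control was normal tissue, so genotype and tumour cannot be told apart. Hdac3 stood at log2 values of 8.21 and 8.37 in control livers, against 6.78, 6.57 and 6.65 in tumours 1, 2 and 3, and array medians lay between 5.66 and 5.77. Its change was −1.62 (limma adjusted p = 0.00298), and the position of its probes relative to the deleted part was not analysed here. Each value is a deposited log2 level of RNA from whole tissue, where fewer cells of a type and less RNA per cell cannot be told apart.

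Of the resident set, only Cd163 passed the test, and it fell. Of the 4 measured genes of the lipid-associated set, Cd9, Gpnmb and Lgals3 rose, while Trem2, whose name that macrophage state often carries, did not pass the test. Among all 19938 genes, 5.6% rose and 4.96% fell at a limma adjusted p under 0.05. Risen genes made up 53.0% of all calls, and 42.7% when every array was shifted to a common median, which moved the median change of all genes from −0.02 to −0.12. No member's call changed under that shift. Tumour and control values did not overlap in 5 of the 9 measured members, as in 44.2% of all genes.

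Cd163, the scavenger receptor that clears haemoglobin bound to haptoglobin, had log2 values of 6.51 and 6.99 in the control livers and 4.45, 4.30 and 4.90 for tumours 1, 2 and 3. All 3 tumours lay below both controls, as 23.1% of all genes did, and tumours 1 and 2 were close to the lower quartile of their arrays, which lay between 4.29 and 4.34. The change was −2.20 on the log2 scale (95% confidence interval −2.77 to −1.62, SE 0.24, n = 2 and 3; limma adjusted p = 0.00563), or 4.59-fold lower, a size that may be understated at such dim values. The call was lost without control 1 (adjusted p = 0.0581) or control 2 (0.0847).

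Cd9, a tetraspanin of the cell surface that organises integrins and other membrane proteins, stood at 8.14 and 7.93 in the controls and at 11.80, 11.26 and 10.83 in the tumours. It had the largest rise of the measured members, 3.26 log2 units (95% confidence interval 2.56 to 3.96), or 9.57-fold (limma adjusted p = 0.00342). Gpnmb, a glycoprotein of lysosomes and the cell surface that macrophages make when their lysosomes are loaded, went from 5.08 and 5.24 to 7.51, 7.70 and 8.62, and tumour 3 was the highest. Its rise was 2.78 (95% confidence interval 1.96 to 3.60), or 6.89-fold (limma adjusted p = 0.00815). Lgals3 encodes galectin-3, a lectin that binds beta-galactosides and that macrophages secrete. Control livers gave 7.35 and 7.09 and tumours 9.94, 9.82 and 9.83 on the log2 scale, a rise of 2.64 (95% confidence interval 2.31 to 2.98), or 6.24-fold (limma adjusted p = 0.000803).

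The 3 tumours agreed most closely in Lgals3, whose tumour values spanned 0.12 log2 units against 0.26 between the controls. For Cd9 the span among tumours was 0.97 and for Gpnmb 1.11. Lgals3 kept its call with any array left out, the highest adjusted p being 0.0286. Cd9 and Gpnmb lost theirs without control 1 (adjusted p = 0.0602 and 0.109) or control 2 (0.0744 and 0.103).

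Trem2, the lipid-sensing receptor of this macrophage state, had values of 5.74 and 6.11 in the controls and 6.51, 6.26 and 6.32 in the tumours. All 3 tumours lay above both controls, as 21.1% of all genes did. The change was 0.44 (95% confidence interval 0.04 to 0.84), or 1.36-fold, with a limma adjusted p of 0.16, and it passed the test under 0 of 14 alternatives.

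**Figure D1:**
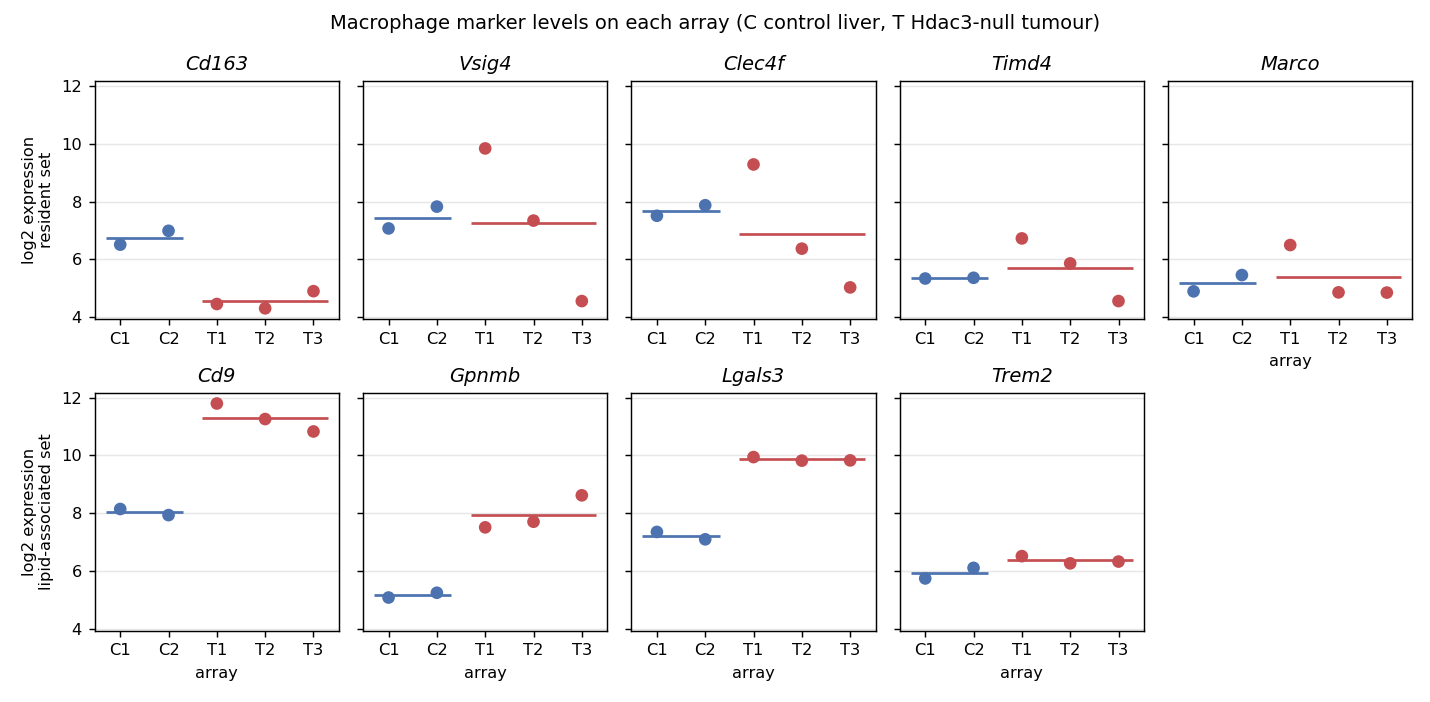
Deposited log2 expression (y axis) of the 9 measured markers on each array (x axis), with C1 and C2 for the control livers and T1 to T3 for the Hdac3-null tumours; points are single arrays and horizontal lines are group means. Cd9, Gpnmb and Lgals3 were higher in each tumour than in both controls, Cd163 was lower, and Vsig4 ran from 9.84 in tumour 1 to 4.55 in tumour 3.

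Because Cd9, Gpnmb and Lgals3 rose together, the sequences around the starts of these 3 genes are shown. Each runs from 150 bases before the annotated start through 20 bases from it, 5′ to 3′ on the gene's own strand, from RefSeq on GRCm38.p6. Capitals mark matches on either strand to the AP-1 element TGANTCA, the PU.1 core AGGAAGT, the M-box core CATGTG bound by MiT family factors, and the GC box GGGCGG.
Gpnmb, chr6:49036368-49036537, plus strand: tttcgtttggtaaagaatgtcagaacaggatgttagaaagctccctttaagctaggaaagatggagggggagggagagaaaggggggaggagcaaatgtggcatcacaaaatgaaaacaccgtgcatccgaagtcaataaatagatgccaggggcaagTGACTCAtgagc
Cd9, chr6:125494741-125494910, minus strand: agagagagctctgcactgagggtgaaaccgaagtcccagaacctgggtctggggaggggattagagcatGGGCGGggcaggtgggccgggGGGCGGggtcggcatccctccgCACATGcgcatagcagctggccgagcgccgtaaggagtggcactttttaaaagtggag
Lgals3, chr14:47373710-47373879, plus strand: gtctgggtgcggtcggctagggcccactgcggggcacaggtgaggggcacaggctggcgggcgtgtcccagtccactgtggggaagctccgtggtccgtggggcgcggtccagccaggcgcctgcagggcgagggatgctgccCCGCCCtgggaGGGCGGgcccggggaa

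The capitals in Gpnmb are an AP-1 element that begins 8 bases after the start base. In windows of this length, 4.74% of 32851 annotated promoters hold that element, and Trem2, the measured member of the set that did not pass the test, also holds one, 9 bases before its start. Cd9 holds GC boxes 81 and 60 bases before its start and an M-box core 38 bases before it, and Lgals3 holds GC boxes 7 bases before and 4 bases after its start. GC boxes occur in 30.3% of the windows and M-box cores in 8.09%. The PU.1 core, found in 5.85% of the windows, matched none of the 9 members' windows, and Cd163, Vsig4, Clec4f, Timd4 and Marco had no match to any of the 4 motifs. For Cd163 and Timd4 the start in RefSeq's promoter table, on which the window is set, lies downstream of the gene's first annotated base. The 3 risen genes share no motif of those searched. GC content was 75.9% in the Lgals3 window, 63.5% in Cd9, 46.5% in Gpnmb and 42.4% in Cd163. A match is a string of letters and no measured binding.

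The other resident markers did not move with Cd163. They diverged among the tumours instead, so that their group means hid most of what happened. Vsig4, the complement receptor by which Kupffer cells capture opsonised bacteria, had control values of 7.07 and 7.82, and tumours 1, 2 and 3 gave 9.84, 7.34 and 4.55. Tumour 1 lay above both controls, tumour 2 between them and tumour 3 below both. Against the control mean these were differences of 2.39, −0.11 and −2.90. The average change was −0.20 (95% confidence interval −3.67 to 3.26; limma adjusted p = 0.957), and its sign was positive without tumour 3 (1.14) and without control 2 (0.18), and with array weights (0.28).

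Clec4f, a C-type lectin that in mice is made by Kupffer cells, was ordered in the same way. Control livers gave 7.51 and 7.87, and tumours 1, 2 and 3 gave 9.28, 6.37 and 5.03. Tumour 1 was above both controls, and tumours 2 and 3 were below both. The differences from the control mean were 1.59, −1.32 and −2.66, and the average change of −0.80 (95% confidence interval −3.64 to 2.04) did not pass the test (limma adjusted p = 0.747). Without tumour 1 it was −1.99 (adjusted p = 0.0583), and without tumour 3 it was 0.14.

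Timd4, the phosphatidylserine receptor for dying cells that marks long-lived resident macrophages, had nearly equal control values of 5.33 and 5.36. Tumours 1, 2 and 3 stood at 6.72, 5.86 and 4.55, which places the first 2 above both controls and the last below. Marco, a scavenger receptor with a collagen-like stalk, had 4.89 and 5.45 in the controls and 6.49, 4.85 and 4.85 in the tumours. Only tumour 1 lay above its control range, and tumours 2 and 3 differed from the lower control by less than the controls differed from each other. The average changes were 0.36 (95% confidence interval −1.07 to 1.80; limma adjusted p = 0.774) for Timd4 and 0.23 (−1.08 to 1.54; limma adjusted p = 0.855) for Marco. Without tumour 1 both averages were negative (−0.14 and −0.32), and that of Marco also without control 1 (−0.06).

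In 4 of the 5 resident markers, all but Cd163, tumour 1 had the highest and tumour 3 the lowest level of the tumours, a pattern found in 14.7% of all genes. For Marco, tumours 2 and 3 both stood at 4.85 to the precision given, so its place among the 4 rests on a negligible difference. The ranges among tumours were 5.29 log2 units for Vsig4 and 4.26 for Clec4f, which were the 8th and the 26th widest of 19938 genes. Timd4 ranked 255 and Marco 496 by the same measure, while Lgals3 ranked 17764. In tumour 3, Vsig4 and Timd4 both stood at 4.55, near the lower quartile of that array (4.34), where differences may be understated. The control livers differed by 0.76 for Vsig4 and 0.37 for Clec4f. With 1 array per tumour these differences have no replicate check and were not tested.

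**Figure D2:**
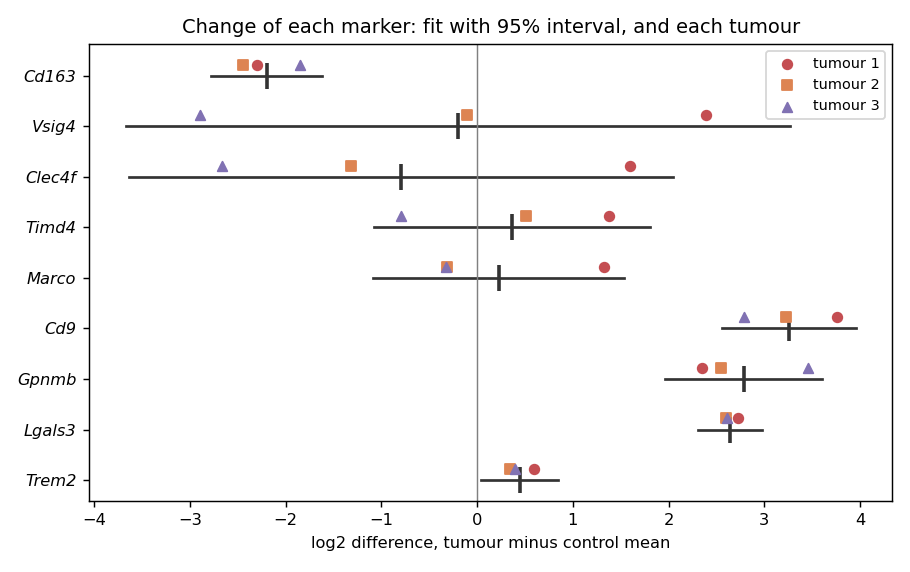
Log2 difference of the tumours from the control mean (x axis) for each measured marker (y axis); the horizontal line and tick are limma's estimate with its 95% confidence interval, and symbols are single tumours. The intervals of Cd9, Gpnmb and Lgals3 lie above 0, as does that of Trem2 (0.04 to 0.84), and that of Cd163 lies below it, while those of Vsig4, Clec4f, Timd4 and Marco cross 0 with tumour 1 on the high side.

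Profiles were compared by the root mean square distance over the 5 arrays, after each gene's control mean was subtracted. The search left out the members themselves and genes with a mean log2 level under 6, so Vsig4 and Clec4f could not be named for each other. Among the genes searched, the nearest to Vsig4 was Cd5l, a secreted scavenger protein also made by Kupffer cells (distance 0.54). Vsig4 and Clec4f were taken as starting points here after their values were seen. Cd5l had 7.09 and 7.57 in the controls and 9.93, 7.61 and 5.54 in the tumours, which put tumour 1 above both controls and tumour 3 below both. The next were Adam23 (0.62) and Prelp (0.79). For Clec4f the nearest were Tgm1 (0.48), the coagulation factor gene F8 (0.52), which liver endothelium expresses, and Fgfr2 (0.55). Around Cd163, by a rule that took the member of each set with the smallest p, lay Tmem86b (0.12), Ppm1k (0.20) and Hmgn5 (0.21). Around Lgals3 lay Tubb6 (0.07), Uap1l1 (0.10) and Cd93 (0.16).

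Among 14 other measured genes of Kupffer cells, 2 fell, 0 rose and 12 did not pass. Of all genes, 4.96% fell and 5.6% rose. At an unadjusted limma p under 0.05, 3 of the list rose and 3 fell, and an ordinary linear model called 0. Nr1h3, which encodes the sterol sensor LXR alpha needed for Kupffer identity, fell by 0.93 (limma adjusted p = 0.0181), and Id3, a Kupffer lineage regulator, fell by 1.37 (limma adjusted p = 0.0411). Both genes are also expressed outside macrophages. Spic (2.13) and Lilra5 (1.32) had limma adjusted p of 0.0531 and 0.0573. The median change of the list was 0.32, against −0.02 for all genes. Of the other list members, Folr2, chosen after its values were seen, stood at 7.38 in tumour 1 and at 5.05 and 4.84 in tumours 2 and 3, against 5.11 and 5.76 in the controls. In 6 of the 14 tumour 1 was highest and tumour 3 lowest. The falls of Nr1h3 and Id3 were lost without control 1, control 2 or tumour 2 (adjusted p between 0.0531 and 0.269).

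Genes shared by most macrophages rose together. Of 20 measured pan-macrophage genes, 17 rose and 0 fell, against 5.6% of all genes risen, and the list's median change was 2.37. Mpeg1, which encodes the pore-forming protein perforin-2, rose by 2.47 (limma adjusted p = 0.00298), C1qc of the complement C1q complex by 3.33, the lysosomal glycoprotein gene Cd68 by 3.02 and the protease gene Ctss by 2.98. Per-tumour medians were 2.46, 2.03 and 2.83, all on the same side. The mean log2 level of the list was 6.35 and 6.73 in control livers, against 8.82, 8.46 and 9.42 in tumours 1, 2 and 3. Tumour 3, with the lowest Vsig4, Clec4f and Timd4, thus had the highest mean of the pan-macrophage genes. Without control 1 the number of risen genes was 0, and without control 2 it was 1 (C1qc).

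The list mean rose by 2.36, so a gene that did not change moves 2.36 log2 units down on a scale relative to that mean, by construction. On this scale Cd163 stood at −4.56, Clec4f at −3.16 and Vsig4 at −2.56. Marco (−2.13), Timd4 (−1.99) and Trem2 (−1.92) stayed nearer to 0 than an unchanged gene would. Cd9 (0.90), Gpnmb (0.42) and Lgals3 (0.28) had small positive values. Their tumour and control values overlapped once the list mean was subtracted, and so did those of Vsig4. After that subtraction Vsig4 stood at 0.71 and 1.10 in the controls and at 1.02, −1.12 and −4.86 in tumours 1, 2 and 3. Clec4f stood at 1.15 in both controls and at 0.47, −2.09 and −4.39 in the tumours. These differences compare probe sets within an array and carry no test.

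**Figure D3:**
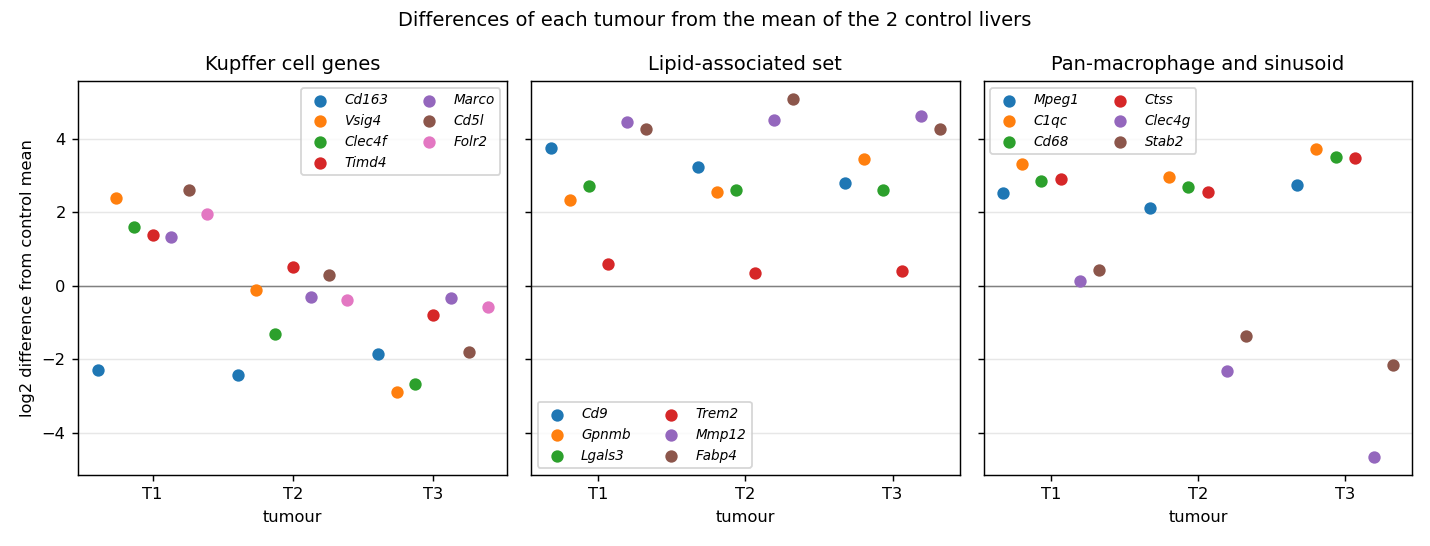
Log2 difference from the mean of the 2 control livers (y axis) in tumours T1, T2 and T3 (x axis) for Kupffer cell genes (left), lipid-associated genes (middle), and pan-macrophage and sinusoidal endothelial genes (right); each point is 1 array. Vsig4, Clec4f and Cd5l are above 0 in tumour 1 and below 0 in tumour 3, while Mpeg1, C1qc, Cd68 and Ctss stay above 2 in every tumour.

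Other genes of lipid-associated macrophages moved with Cd9, Gpnmb and Lgals3. Of 25 measured, 14 rose and 0 fell, against 5.6% of all genes risen, with a median change of 1.34. Their mean log2 level was already 7.89 and 7.56 in the controls, against 6.35 and 6.73 for the pan-macrophage genes. Which cells carried these transcripts was not tested. Mmp12, the macrophage elastase, went from 5.19 and 5.06 in the controls to tumour values of 9.60, 9.63 and 9.75, a rise of 4.54 (limma adjusted p = 0.000144). Fabp4, a fatty acid binding protein of fat cells and macrophages, rose by 4.55, the chemokine and scavenger receptor gene Cxcl16 by 2.33, and Cd44, a receptor for hyaluronan and osteopontin, by 2.20. Apoe, a lipoprotein component that binds Trem2 but comes mainly from hepatocytes in liver, stood at −0.08 (adjusted p = 0.795), named here after its value was seen. Per-tumour medians were 1.31, 1.45 and 1.28. The count was 6 without control 1 and 4 without control 2, and the 4 named genes kept their calls without either.

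Several signalling partners of Trem2 passed the test. Tyrobp, the adaptor that carries its signal, went from 6.11 and 6.47 in the controls to tumour values of 8.53, 8.08 and 8.99, a rise of 2.24 (limma adjusted p = 0.00902). Of 13 measured partners and signalling genes, 4 rose and 0 fell, against 5.6% of all genes risen, with a median of 0.80. The kinase gene Syk rose by 1.65, the phosphatase gene Inpp5d by 1.59 and Adam10, a protease that sheds Trem2, by 0.80. Tyrobp serves many other receptors as well. Among 5 relatives of Trem2, Treml4 rose by 2.25 (limma adjusted p = 0.0314), and Trem3 (0.21), Trem1 (0.13) and Treml2 (0.17) did not pass, with a list median of 0.17. Without either control these calls were lost (adjusted p between 0.0935 and 0.234), as was that of Treml4 without tumour 1 (0.0618). Whether Trem2 differed from Tyrobp in its change was not tested.

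Of 14 measured scavenger receptors other than Cd163 and Marco, 4 rose and 0 fell (2 lower at an unadjusted p under 0.05). Of all genes, 5.6% rose and 4.96% fell. The median change of the list was 0.28. Besides Cxcl16 and Cd68, the fatty acid transporter gene Cd36 rose by 1.89 (limma adjusted p = 0.0363) and Msr1, a class A receptor like Marco, by 1.55 (limma adjusted p = 0.0456). Colec12 (−1.59, adjusted p = 0.123) and Megf10 (−0.48, adjusted p = 0.143), named after their values were seen, were lower in all 3 tumours than in both controls and did not pass the test. Timd4 belongs to the receptors and bridging proteins for dying cells. Of 16 others measured, 4 rose and 0 fell, against the same shares of all genes, with a median of 0.34. Mfge8, the bridge between phosphatidylserine and integrins, rose by 4.32, from 6.57 and 6.41 to 10.76, 10.86 and 10.82 (limma adjusted p = 0.000144). The receptor kinase gene Axl rose by 2.71, Itgb5 by 0.83 and Itgav by 1.0. Without either control, Mfge8 and Cxcl16 kept their calls, and Cd68, Cd36, Msr1, Axl, Itgb5 and Itgav lost theirs (adjusted p between 0.0521 and 0.295). Cd36 and Msr1 were also lost without tumour 1 (0.0592 and 0.0762), Cd36, Itgb5 and Itgav without tumour 2 (0.094, 0.0509 and 0.0723), and Msr1 without tumour 3 (0.0612).

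Among transcription factors of the Kupffer and macrophage lineage, 2 of 13 rose and 3 fell, against 5.6% and 4.96% of all genes. Their median of −0.01 was close to that of all genes (−0.02). Spi1, which encodes the myeloid master factor PU.1, rose by 1.88 and Irf8, a monocyte lineage factor, by 1.22, while Nr1h3, Id3 and Pparg (−0.81) fell. Without either control all 5 calls were lost, with adjusted p between 0.149 and 0.269. Spi1, Irf8, Nr1h3 and Id3 also lost theirs without tumour 2 (between 0.0531 and 0.106), and Pparg without tumour 1 (0.0731).

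Of 11 measured markers of monocytes, 10 had a positive change, against 9385 of all 19938 genes, and the median was 0.49. By the test 2 rose, Nr4a1 by 1.02 and the fractalkine receptor gene Cx3cr1 by 1.47, and Msrb1 fell by 1.19. Of all genes, 5.6% rose and 4.96% fell. Msrb1 stood at 11.36 and 11.40 in the controls, where the list means were 5.99 and 5.87. Which cells carried Msrb1 transcripts was not tested. Ccr2, the receptor by which monocytes leave the marrow, stood at 4.23 and 3.73 in the controls and 4.65, 5.17 and 5.24 in the tumours (change 1.04, limma adjusted p = 0.0502). Its control values lay under the lower quartile of their arrays. Among the other genes with a positive change, Chil3 and Vcan lay under that quartile on 4 arrays each and F13a1 on 2. Without either control the 3 calls were lost (adjusted p between 0.0843 and 0.202), and that of Cx3cr1 also without tumour 2 (0.0516).

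Other cell types moved with the members in part. The order of tumours seen in Vsig4 and Clec4f was shared by 9 of 12 markers of sinusoidal endothelium, the vessel lining on which Kupffer cells sit. It was also found in 10 of 12 markers of stellate cells and fibroblasts and in 6 of 10 hepatocyte markers, against 14.7% of all genes. The hepatocyte gene Cyp2e1 had 13.06 and 12.98 in the controls and 11.49, 8.87 and 4.10 in the tumours, the widest range of all genes. The endothelial medians were 0.22, −1.02 and −1.51 in tumours 1, 2 and 3, and the mean log2 level was 7.69 and 7.82 in the controls and 8.22, 7.09 and 6.21 in the tumours. Clec4g, a lectin of these vessels chosen after its values were seen, had 9.13 and 9.53 in the controls and 9.46, 7.0 and 4.67 in the tumours, the 14th widest range of all genes. Of the 12 endothelial markers, limma called 0 (1 higher and 2 lower at an unadjusted p under 0.05; the ordinary model called 0), with Pecam1 at 1.27 (adjusted p = 0.0522), Dnase1l3 at −1.33 (0.114) and Oit3 at −1.68 (0.142). Limma called 10.6% of all genes in either direction. Stellate medians were 1.64, 0.52 and −0.39. In that list Acta2 rose by 2.44 and Hhip fell by 0.94, and both calls were lost without either control (adjusted p between 0.0967 and 0.13). The part of these cells in the divergence of the resident markers was not tested.

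For the lipid-associated set, the tumour cells themselves, bile duct cells and lymphoid cells are other possible hosts of Cd9 and Lgals3 transcripts. Of 10 measured cholangiocyte markers, limma called 0 (3 higher and 0 lower at an unadjusted p under 0.05; the ordinary model called 0), with Muc1 at 0.44, Krt19 at 1.69 and Krt7 at 0.48. Their mean log2 level was 4.83 and 4.73 in the controls and 5.80, 5.28 and 5.22 in the tumours, and 1 of the 10 lay under the lower quartile on every array. Tspan8, named after its values were seen, carried most of the difference in tumour 1, with 3.83 and 3.42 in the controls and 10.07, 6.47 and 4.49 in the tumours (change 3.39, adjusted p = 0.233). T and NK cell markers had 0 calls of 12 (3 higher at an unadjusted p under 0.05), with mean levels of 4.65 and 4.62 in the controls and 5.01, 4.99 and 6.02 in the tumours. Tumour 3 was the highest in that list, with Thy1 at 0.66, Cd8a at 1.27 and Cd3g at 2.22. The lists of B cells, neutrophils and dendritic cells had 0 calls of 6, 11 and 10, and their medians were 0.02, 0.07 and 0.06 (2 and 0, 1 and 0, and 0 and 1 higher and lower at an unadjusted p under 0.05). The ordinary model called 0 in each of these lists. Limma called 10.6% of all genes in either direction. In the B cell list Cd22 (0.56), Cd79b (0.44) and Blk (−0.31) had the smallest p, among neutrophil genes Csf3r (0.58), Ly6g (−0.25) and Cxcr2 (0.27), and among dendritic cell genes Zbtb46 (−0.33), Clec10a (0.46) and Xcr1 (0.39). Of 10 hepatocyte markers, Apoh fell by 1.22 and Ttr by 0.71, both lost without either control (adjusted p between 0.235 and 0.271) or without tumour 2 (0.0995 and 0.0818), and Ttr without tumour 1 (0.0597). Cyp2e1 stood at −4.87 (adjusted p = 0.197), and the mean level of the list was 12.39 and 12.42 in the controls and 12.07, 11.61 and 11.03 in the tumours. Which cells carried the Cd9, Gpnmb and Lgals3 transcripts was not tested.

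**Figure D4:**
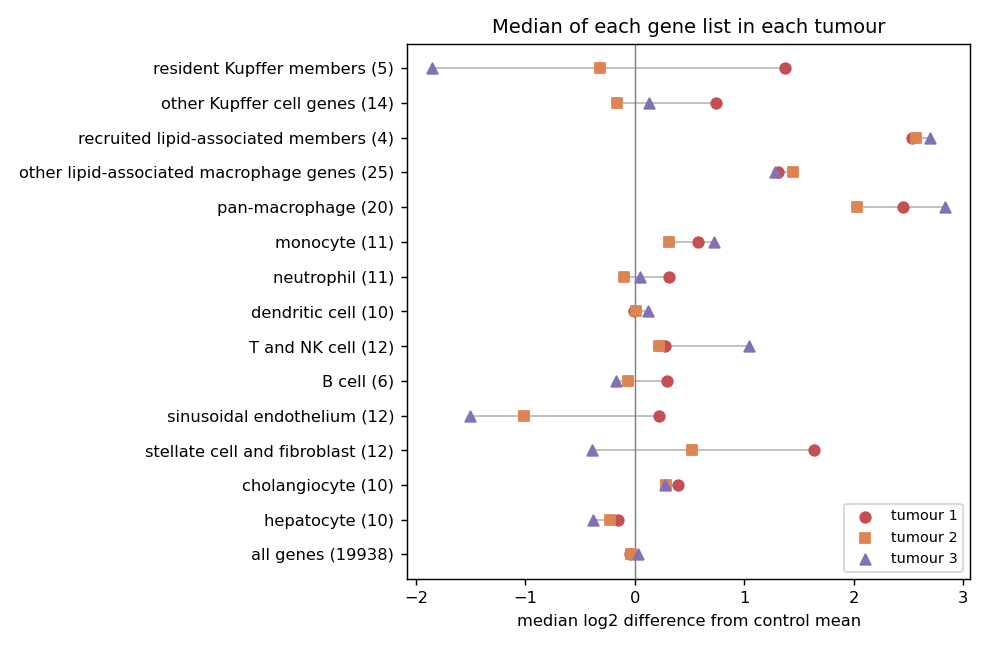
Median log2 difference from the control mean (x axis) of each gene list in each tumour, with the number of measured genes in parentheses (y axis); symbols are single tumours and grey lines span the 3. The pan-macrophage medians lie between 2.03 and 2.83, whereas those of the resident markers run from 1.38 in tumour 1 to −1.85 in tumour 3 and those of sinusoidal endothelium from 0.22 to −1.51.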

How the data were processed

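Whole-tissue RNA of 2 control livers and 3 Hdac3-null liver tumours was hybridised to 1 array each, per the labels' protocols. The values the authors deposited are log2 expression levels of probe sets. The submitters' processing notes name RMA and GCOS without a version. RMA summarises probes on the log2 scale and compresses dim differences. The array's genome build was not given in the sources used here.

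Among 28853 probe sets, 21789 had 1 gene symbol and were used; 1621 had several and 5443 none. The probe set with the highest mean was kept for each of 19938 genes, with no filter on dim genes. Differences were fitted over all genes with limma 3.58.1 (lmFit, eBayes) under R 4.3.3 (3 residual degrees of freedom), two-sided, with Benjamini-Hochberg adjustment and a threshold of 0.05. An exact permutation of 2 against 3 arrays cannot go below p = 0.1. The fit was tested on simulated data. The labels call samples biological replicates.

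The members, the 23 other gene lists and the rule for named genes (all members, up to 4 genes of each list with the smallest p, 3 for other cell types, and the 3 nearest profiles with a mean of at least 6 to the member of each set with the smallest p) were chosen with earlier results of these data known; some genes stand in more than 1 list. Python 3.11.15 with pandas 2.3.3 and matplotlib 3.10.9 made tables and figures.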

Additional observations from a re-analysis of the deposited data

How the results depend on the processing

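The alternatives were repeated quantile normalisation, equal array medians, leaving out the dimmest 40% of genes, 2 other choices among probe sets, a robust fit with a variance trend, weighting of arrays, a replicate block, an ordinary linear model per gene and leaving out each array in turn. Cd163 and Marco were among the genes removed as dim, which left 0 resident markers called. Cd163, Cd9, Gpnmb and Lgals3 kept their direction in all alternatives that tested them. Of their alternatives, 10 of 13, 11 of 14, 11 of 14 and 13 of 14 kept the call. The ordinary model, with no shared spread, called 6 genes up and 12 down of all genes, and 0 resident and 0 lipid-associated markers. Array weights called 1727 up and 1525 down. With an array left out, the counts lay between 62 and 1465 up and between 46 and 1254 down, the lowest without a control, where the lone control is assumed to vary like the tumours. They lay between 0 and 1 for fallen resident markers, 1 and 3 for risen lipid-associated markers, 0 and 17 for pan-macrophage genes, 4 and 18 for other lipid-associated genes and 0 and 2 for fallen Kupffer genes, the last 3 added after seeing the data.

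The averages of 4 resident markers changed sign under some settings, none of them called. Vsig4 went from −0.20 to 0.28 with array weights and to 1.14 with the replicate block, and ranged from −1.50 to 1.14 with arrays left out. Clec4f went to 0.14 with the replicate block and ranged from −1.99 to 0.14. Timd4 ranged from −0.14 to 0.94 and Marco from −0.32 to 0.51. Deviations of same-numbered arrays correlated at 0.004 and −0.01. With 2 controls, the deviations of one mirror those of the other, so these values cannot exclude a pairing of same-numbered arrays. The block called 1342 genes up and 1034 down and no other member. Tumour 3 has no control of its number, so the block's estimates for the members equal those without tumour 3 and are no separate check, though counted among the alternatives above. The number of arrays limits the precision.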

Other observations

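Relatives of the members moved unevenly. By the same test 5.6% of all genes rose and 4.96% fell. Of 25 measured genes of tetraspanins other than Cd9 and of their partners Ptgfrn and Igsf8, 6 rose and 1 fell, with a median of 0.45, including the lysosomal Cd63 (3.50), Cd151 (1.33), the leukocyte gene Cd53 (2.66) and Tspan15 (1.86). The fallen tetraspanin gene was Tspan12 (−2.13), named after its value was seen. Of 8 galectin genes and ligands other than Lgals3, Lgals3bp, a secreted galectin-3 ligand, rose by 1.79, and 0 fell (1 lower at an unadjusted p under 0.05), while Lgals4 (−0.51), Lgals1 (0.92) and Lgals7 (0.27) did not pass, with a median of 0.00. Of 9 receptors of osteopontin, 5 rose and 0 fell, with a median of 0.83, among them Cd44, Itgb5, Itga5 (0.78) and Itga4 (2.37). Of 23 MiT family factors and lysosomal genes, 6 rose and 1 fell, with a median of 0.66, and Ctsz (1.25), Ctsd (1.22), Sqstm1 (1.19) and Hexa (1.12) had the smallest p. The fallen gene, Gaa (−0.63), was named after its value was seen.

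Of 10 complement receptor and C1q genes, 6 rose and 0 fell, against 5.6% of all genes risen, with a median of 2.30. C1qb rose by 3.34, C1qa by 2.85 and C3ar1 by 2.24. Among 17 growth factors, recruitment and niche genes of macrophages, 4 rose and 0 fell, with a median of 0.62: Csf2rb by 1.72, Tgfb1 by 1.66, Cx3cl1 by 1.07 and Acvrl1 by 0.73. Of the 72 genes called in the lists besides the members, 7 kept their call without control 1, 6 without control 2, 62 without tumour 1, 54 without tumour 2 and 71 without tumour 3.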
